A study of Homo sapiens with 6 samples.

Results

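The 10 genes described here encode the TFEB family of transcription factors and the machinery through which mTORC1 senses nutrients at the lysosome: TFEB, TFE3, MITF, FLCN, FNIP1, RRAGC, RRAGD, LAMTOR1, TSC2 and RPTOR. They were taken from the count table by gene symbol, with no measured value in the rule, though the set was drawn up with earlier results of these libraries known, and each was found once among the 19330 transcripts of the count table. The measurement was ribosome profiling (Ribo-Seq), in which the stretches of mRNA covered by ribosomes are sequenced, so that the number of footprints on a gene reflects both how much of its mRNA is present and how heavily it is loaded with ribosomes. The cells were K562, a human chronic myelogenous leukemia line of erythroid character. Per the labels, all 6 cultures received a lentiviral CRISPR/Cas9 vector (pLentiCRISPRv2), were held in puromycin for 48 h and were collected 10 days after infection. The 3 sgN6AMT1 libraries came from cells with a guide to N6AMT1, a methyltransferase of the translation release factor eRF1. The 3 sgCtrl libraries came from cells with guides to olfactory receptor genes, written OR11A1 and OR2M49 in the labels, where the paper's methods name OR11A1 and OR2M4. Which of these guides each library carried is not stated. Both groups thus carried Cas9, a guide and puromycin resistance. The cultures were mixed populations of infected cells and not clones, and they are described as independent infections.

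TFEB, TFE3 and MITF are closely related basic helix-loop-helix leucine zipper factors that bind the E-box CACGTG and drive genes for lysosomes and autophagy. When amino acids are plentiful, Rag GTPases on the lysosome recruit both the kinase complex mTORC1 and these factors, and mTORC1 phosphorylates the factors so that they stay in the cytosol. A Rag dimer pairs RagA or RagB with RagC (RRAGC) or RagD (RRAGD), and it sits on the Ragulator complex, whose subunit LAMTOR1 is anchored in the lysosomal membrane. Folliculin (FLCN), with its partner FNIP1 or FNIP2, switches RagC and RagD to the form that presents the factors to mTORC1. RPTOR is the subunit of mTORC1 that docks on the Rags and holds substrates, and TSC2, with TSC1, turns off RHEB, the direct activator of mTORC1. The factors in turn act on genes of this same machinery, RRAGC, RRAGD, FLCN and FNIP among them.

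The libraries held 1821356 to 2969736 counts, so that 3 counts in a library corresponded to 1.03 to 1.63 CPM, that is, counts scaled to a common library size. N6AMT1 itself was lower in every sgN6AMT1 library, with 10, 9 and 8 counts against 25, 24 and 34 in the controls (log2 fold change -1.51, SE 0.31, edgeR adjusted p = 6.69e-05). The listed N6AMT1 transcript is annotated in GENCODE as a target of nonsense-mediated decay and is not the one marked as canonical there. All 11 markers of K562 cells had counts, with summed levels of 27411 to 28878 CPM in sgCtrl and 27800 to 28714 CPM in sgN6AMT1. These sums are mostly globin footprints, and among the markers TAL1 (log2 fold change 0.48) and HBE1 (0.48) were higher and GATA1 (-0.29), LMO2 (-1.44), HBZ (-0.27) and TFRC (-0.33) lower. Of 5 megakaryocyte markers, GP1BA and PF4 were at 0. The summed level, nearly all of it ITGA2B, was 10.8 to 13.6 CPM in sgCtrl and 2.19 to 4.75 CPM in sgN6AMT1. ITGA2B was lower (log2 fold change -1.79), with 25, 36 and 22 counts in control cells and 5, 11 and 6 in depleted cells. Of 5 myeloid markers, CD14 was at 0 and the summed level, nearly all of it LYZ, was 51.7 to 61.0 CPM in sgCtrl and 105 to 117 CPM in sgN6AMT1. Of 3 epithelial and fibroblast markers, with summed levels of 1170 to 1212 CPM in sgCtrl and 1546 to 1558 CPM in sgN6AMT1, KRT8 was higher (log2 fold change 0.44), while EPCAM (0.05) and COL1A1 (0.23) did not pass the threshold. In such bulk samples, fewer cells that make a transcript and less of it per cell cannot be told apart.

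Of the 10 genes, 8 had enough footprints to be tested, and 2 of them passed the threshold, both upward: TFE3 and RRAGC. FLCN, FNIP1, LAMTOR1, TSC2, RPTOR and MITF did not pass, TFEB had too few footprints for the test, and RRAGD had none. The 2 of 8 are to be read against all 9202 genes tested, of which 26.9% passed, 12.9% upward and 13.9% downward (edgeR quasi-likelihood F test, Benjamini-Hochberg adjusted p below 0.05). The share among the 8 tested genes was therefore close to that of the table as a whole. DESeq2, which called 12.3% of the genes it adjusted, called 0 of these genes, and 1 of them had an unadjusted p below 0.05 there. With edgeR 3 of the 8 had an unadjusted p below 0.05, beside 3390 of all 9202 genes tested, a similar share. The libraries of the groups did not overlap for TFE3 and RPTOR, again 2 of 8, while 37.5% of all genes tested showed no overlap. The median log2 fold change of the 8 genes was 0.0079, and that of all genes tested was 0.0063.

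**Figure D1:**
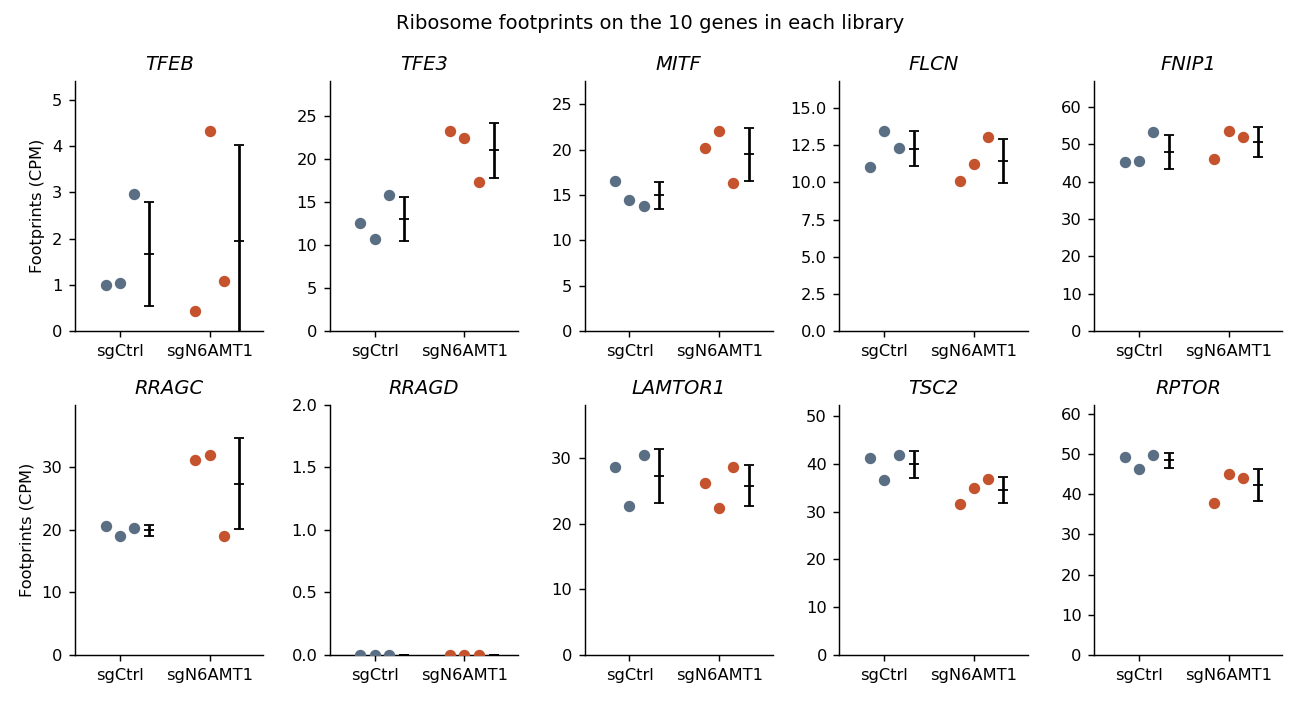
Footprints on each of the 10 genes in CPM (vertical axes, each starting at 0 and scaled to its gene), with 1 point per library and, to the right of each group, the mean with bars of 1 SD (n = 3). The sgN6AMT1 points for TFE3 all lie above the sgCtrl points, RRAGC has 1 sgN6AMT1 library at the level of the controls, and RRAGD is at 0 throughout.

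The factors themselves were examined first. TFE3 (chromosome X, 49028726 to 49043357 on the minus strand of GRCh38, CDS of 1725 bases) had 25, 31 and 32 counts in control cells and 53, 52 and 32 in N6AMT1-depleted cells. Scaled to library size these were 12.6, 10.7 and 15.8 CPM in sgCtrl and 23.2, 22.5 and 17.4 CPM in sgN6AMT1. Each N6AMT1-depleted library was above the highest control, with replicate 3 of either group nearest to the other group. Mean levels were 13.0 ± 2.57 CPM (SD, n = 3) and 21.0 ± 3.18 CPM (SD, n = 3), a log2 fold change of 0.73 (SE 0.21, 95% interval 0.32 to 1.14, edgeR adjusted p = 0.00407), or 1.66-fold. Of the 1191 genes that rose, 32.3% had a larger log2 fold change than TFE3. The call was lost with DESeq2 (log2 fold change 0.71, adjusted p = 0.103) and in edgeR without sgCtrl replicate 2, the lowest control (0.58, adjusted p = 0.0610).

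MITF, the factor best known from melanocytes, lies on chromosome 3 (69763811 to 69968332, plus strand, CDS of 1557 bases in the listed transcript). Its counts were 33, 42 and 28 in control cells and 46, 51 and 30 in depleted cells, which corresponded to 16.6, 14.5 and 13.8 CPM and to 20.2, 22.0 and 16.3 CPM. Replicates 1 and 2 of sgN6AMT1 were above every control, and replicate 3 lay between the controls. The means were 15.0 ± 1.45 CPM (SD, n = 3) for control and 19.5 ± 2.93 CPM (SD, n = 3) for depleted cells, and the log2 fold change of 0.40 (SE 0.20, 95% interval 0.0020 to 0.80) did not pass the threshold (edgeR adjusted p = 0.134). MITF has 15 coding transcripts in GENCODE, and the one listed here is not the one marked as canonical there.

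TFEB, after which the family is often named, was barely covered. It had 2, 3 and 6 counts in control cells and 1, 10 and 2 in depleted cells, or 1.67 ± 1.12 CPM (SD, n = 3) and 1.95 ± 2.08 CPM (SD, n = 3). The groups overlapped throughout, and most libraries were near the level that 3 counts represent, so a difference was not detectable at this depth. Without the filter on low counts its log2 fold change was 0.32 (edgeR adjusted p = 0.787). The listed TFEB transcript (chromosome 6, 41683978 to 41691476, minus strand) is also 1 of 15 coding transcripts and not the one GENCODE marks as canonical. Whether footprints on the others were counted under it is not stated.

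Levels of different genes were compared as CPM per kilobase of CDS. On this scale MITF stood at 9.60 ± 0.928 in sgCtrl, TFE3 at 7.54 ± 1.49 and TFEB at 1.17 ± 0.784 (SD, n = 3 each), and the libraries of MITF and TFE3 overlapped while TFEB lay apart below them. In sgN6AMT1 the levels were 12.5 for MITF, 12.2 for TFE3 and 1.36 for TFEB. TFE3 therefore made up 39.1%, 38.2% and 45.5% of the summed per-kilobase level of the 3 factors in control libraries, and 50.4%, 43.1% and 47.3% in depleted ones. These shares overlapped between the groups, as did those of TFEB, which ranged from 3.78% to 10.3% and from 1.15% to 10.0%. Each share rests on a total of 60 to 113 counts per library. The log2 ratio of TFEB to TFE3 counts was -3.14 ± 0.645 in sgCtrl and -4.04 ± 1.67 in sgN6AMT1 (SD, n = 3 each, difference -0.89, 2-sided exact permutation p = 0.5, 0.75 after adjustment over 3 ratios). With 3 libraries against 3 such a test cannot give a p below 0.1.

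**Figure D2:**
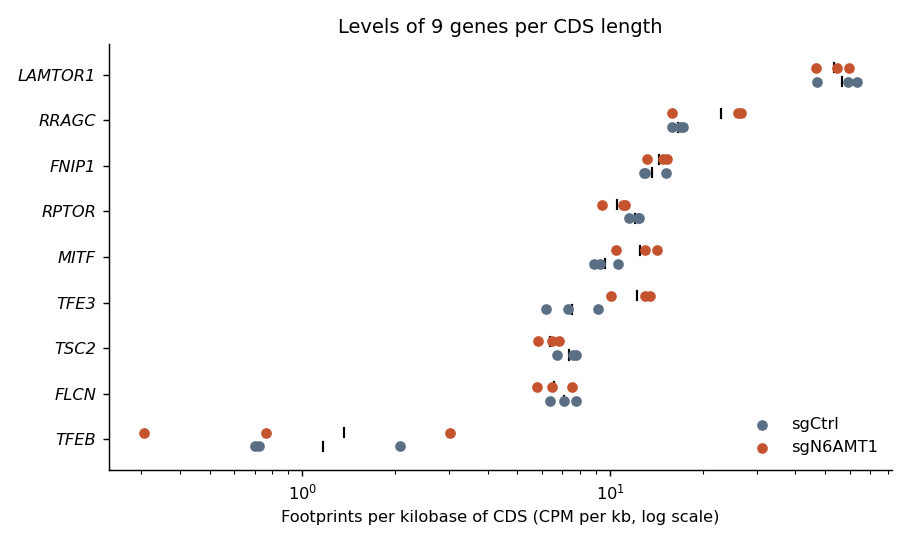
Footprints per kilobase of CDS (horizontal log axis, CPM per kb) for the 9 genes with any footprints, ordered by level in sgCtrl, with 1 point per library and a vertical tick at each group mean (n = 3). LAMTOR1 lies above all others, most genes fall between 6.36 and 22.9 in mean level, and TFEB lies below the rest in both groups.

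RRAGC encodes RagC, the Rag subunit on which folliculin acts. It lies on chromosome 1 (38838198 to 38859772, minus strand, CDS of 1197 bases) and had 41, 55 and 41 counts in control cells and 71, 74 and 35 in depleted cells. In CPM the controls were tightly grouped at 20.6, 19.0 and 20.2, whereas the N6AMT1-depleted libraries stood at 31.1, 32.0 and 19.0. Thus 2 of the sgN6AMT1 libraries were well above all controls, and replicate 3 lay among them. The means of 19.9 ± 0.854 CPM (SD, n = 3) and 27.4 ± 7.26 CPM (SD, n = 3) gave a log2 fold change of 0.49 (SE 0.18, 95% interval 0.14 to 0.84, edgeR adjusted p = 0.0282), or 1.40-fold. The call was lost with DESeq2 (0.46, adjusted p = 0.280) and in edgeR without sgCtrl replicate 2 (0.45, adjusted p = 0.111), sgN6AMT1 replicate 1 (0.39, adjusted p = 0.152) or sgN6AMT1 replicate 2 (0.37, adjusted p = 0.223). Without sgN6AMT1 replicate 3 it was 0.67 (adjusted p = 0.00271). In GENCODE a long noncoding RNA on the same strand covers 960 bases of the RRAGC CDS, so reads there could come from either transcript.

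RRAGD, the alternative to RRAGC and a known TFEB target, had 0 counts in all 6 libraries, which allows a level of up to 3 counts per library. Per kilobase of CDS, RRAGC was at least 14.9-fold higher than RRAGD in sgCtrl and at least 19.4-fold higher in sgN6AMT1, with RRAGD set to that floor in each library. RRAGC was accordingly the RagC/D gene with footprints in both groups, and its ratio to RRAGD could not be computed.

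FLCN and FNIP1, which together act on RagC, did not differ between the groups beyond their spread. FLCN (chromosome 17, 17212212 to 17237168, minus strand) stood at 11.1, 13.4 and 12.3 CPM in sgCtrl and 10.1, 11.2 and 13.0 CPM in sgN6AMT1 (log2 fold change -0.13, SE 0.24, 95% interval -0.60 to 0.34, edgeR adjusted p = 0.740). The listed FLCN transcript shared 35.7% of its 28-base words with a readthrough transcript in the same table, RP11-45M22.4, which had 3, 6 and 4 counts in control cells and 2, 1 and 0 in depleted cells, so reads from the shared stretch could have been given to either. FNIP1 (chromosome 5, 131641714 to 131797017, minus strand) stood at 45.2, 45.5 and 53.2 CPM and at 46.0, 53.6 and 52.1 CPM (0.08, SE 0.12, 95% interval -0.16 to 0.32, edgeR adjusted p = 0.679). The libraries of both genes were intermixed. A readthrough transcript that shares 5.56% of the 28-base words of the whole FNIP1 transcript, CTC-432M15.3, is listed separately. It had 45, 74 and 51 counts in control cells and 36, 41 and 43 in depleted cells. FNIP2, the other partner of folliculin, averaged 10.2 CPM in sgCtrl and 11.1 CPM in sgN6AMT1 (0.09, SE 0.25, edgeR adjusted p = 0.841). The log2 ratio of FNIP1 to FNIP2 counts was 2.24 ± 0.247 and 2.19 ± 0.178 (SD, n = 3 each, exact permutation p = 0.9, 0.9 after adjustment), and per kilobase of CDS FNIP1 stood at 13.7 and FNIP2 at 3.05 CPM in sgCtrl.

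LAMTOR1, the membrane anchor of Ragulator, was the most densely covered of the 10 genes, at 56.6 ± 8.42 CPM per kilobase in sgCtrl and 53.5 ± 6.58 in sgN6AMT1 (SD, n = 3 each). It lies on chromosome 11 (72097292 to 72103297, minus strand) with a CDS of only 483 bases. Its values were 28.6, 22.8 and 30.6 CPM in sgCtrl and 26.3, 22.5 and 28.8 CPM in sgN6AMT1. The groups overlapped over most of their ranges, with replicate 2 the lowest of each, and the log2 fold change was -0.06 (SE 0.16, 95% interval -0.39 to 0.26, edgeR adjusted p = 0.815).

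TSC2 and RPTOR, a brake and a scaffold of mTORC1, both had somewhat fewer footprints in the depleted cells without passing the test. TSC2 (chromosome 16, 2047985 to 2089491, plus strand) stood at 41.2, 36.5 and 41.9 CPM in sgCtrl and 31.6, 35.0 and 36.9 CPM in sgN6AMT1 (log2 fold change -0.20, SE 0.14, 95% interval -0.47 to 0.07, edgeR adjusted p = 0.283). RPTOR (chromosome 17, 80544838 to 80966368, plus strand) stood at 49.2, 46.2 and 49.8 CPM and at 37.7, 44.9 and 44.0 CPM (-0.19, SE 0.12, 95% interval -0.44 to 0.05, edgeR adjusted p = 0.258). The RPTOR libraries did not overlap, while for TSC2 the highest depleted library exceeded the lowest control. TSC1 averaged 12.1 CPM in sgCtrl and 12.5 CPM in sgN6AMT1 (0.07, SE 0.24, edgeR adjusted p = 0.874), and the log2 ratio of TSC2 to TSC1 counts was 1.72 ± 0.204 and 1.50 ± 0.533 (SD, n = 3 each, exact permutation p = 0.5, 0.75 after adjustment).

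**Figure D3:**
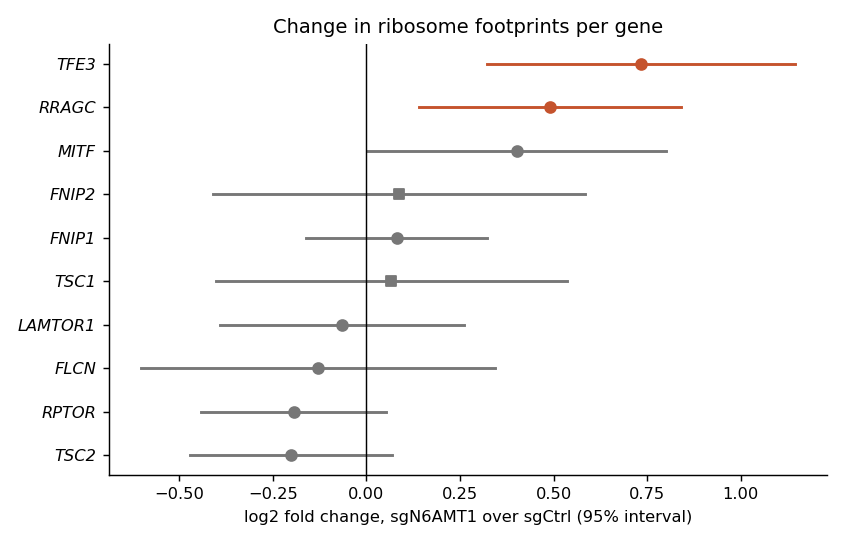
Log2 fold change of sgN6AMT1 over sgCtrl (horizontal axis, 95% interval as bars) for the 8 genes tested (circles) and for FNIP2 and TSC1 (squares), with genes past the threshold in colour. TFE3 at 0.73 and RRAGC at 0.49 lie clear of 0, the interval of MITF at 0.40 ends just above it, and the intervals of the others span it.

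Ordered by footprints per kilobase in sgCtrl, the genes ran from LAMTOR1 (56.6) through RRAGC (16.6), FNIP1 (13.7) and RPTOR (12.1) to MITF (9.60), TFE3 (7.54), TSC2 (7.36), FLCN (7.07), TFEB (1.17) and RRAGD (0). The neighbours MITF and TFE3, TFE3 and TSC2, and TSC2 and FLCN overlapped in their libraries, and the other neighbours did not. In sgN6AMT1 the order began with LAMTOR1 and RRAGC (22.9), and FNIP1 (14.5), MITF (12.5), TFE3 (12.2) and RPTOR (10.5) followed, each overlapping the next. FLCN (6.59) and TSC2 (6.36) came below these with no overlap. TFE3 overlapped MITF in both groups, and it overlapped TSC2 in the control cells but not in the depleted cells. Against all genes tested, LAMTOR1 was at the 70th percentile of level and RRAGC at the 43.6th, while TFE3 was at the 25.6th and FLCN at the 16.8th, so that LAMTOR1 alone of the 8 tested genes lay above the middle of the range.

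The E-box bound by the factors was looked for in the promoter windows of their own pathway, since several of the 10 genes are known targets. RefSeq windows (GRCh38.p14, 250 bases before to 50 after the start site) were given for 9 of the 10 genes. The letters CACGTG, which read the same on both strands, occurred in 4 of these, RRAGC, FNIP1, LAMTOR1 and TSC2, against 8.77% of 27305 genes. Flanked as TCACGTGA the motif occurred in TSC2 alone, against 1.18% of genes. The M-box TCATGTG, searched on both strands, whose letters cannot coincide with CACGTG, occurred in LAMTOR1 alone, against 3.59% of genes. The stretches around the E-box are shown 5′ to 3′ on the strand of the gene with the motif in capitals, for the 4 genes that hold it.
RRAGC, chr1:38859859-38859904, minus strand, motif from base -112: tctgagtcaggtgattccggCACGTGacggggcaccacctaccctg
FNIP1, chr5:131797086-131797131, minus strand, motif from base -94: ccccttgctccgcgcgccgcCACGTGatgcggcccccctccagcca
FNIP1, chr5:131797167-131797212, minus strand, motif from base -175: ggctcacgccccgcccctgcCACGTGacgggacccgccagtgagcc
LAMTOR1, chr11:72103437-72103482, minus strand, motif from base -165: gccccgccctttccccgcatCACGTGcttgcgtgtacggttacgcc
TSC2, chr16:2047851-2047896, plus strand, motif from base -114: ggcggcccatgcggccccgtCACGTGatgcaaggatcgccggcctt
Of these genes RRAGC had a log2 fold change of 0.49, FNIP1 of 0.08, LAMTOR1 of -0.06 and TSC2 of -0.20, so genes with the motif lay on both sides of 0. TFE3, which rose, had no match in its window, nor had TFEB, MITF, FLCN and RPTOR. A match describes the letters only, and binding was not measured.

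The rest of the pathway was then described from 6 lists of 74 genes, of which 64 could be tested. Of these, 12 (18.8%) were higher and 3 (4.69%) lower, with a median log2 fold change of 0.17, against 12.9% higher, 13.9% lower and a median of 0.0063 over all genes tested. DESeq2 called 5 of the 68 list genes it adjusted, 4 higher and 1 lower. Over all genes it called 1324 of 10780 (12.3%), 585 higher and 739 lower. The counts of the single lists below are to be read beside the same shares of all genes. The Rag, Ragulator and docking list had 3 of 8 tested genes higher (37.5%, against 12.9% of all genes) and none lower. Among these Ragulator subunits, LAMTOR2 had 67, 96 and 77 counts in control cells and 134, 135 and 117 in depleted cells, and its level went from 34.9 to 60.2 CPM (log2 fold change 0.79, SE 0.12, edgeR adjusted p = 1.75e-07). LAMTOR5 rose from 153 to 202 CPM (0.41, SE 0.07, edgeR adjusted p = 4.38e-06), and LAMTOR3 from 46.9 to 58.7 CPM (0.33, SE 0.12, edgeR adjusted p = 0.0289). The LAMTOR3 call was lost with DESeq2 (0.32, adjusted p = 0.236) and without sgCtrl replicate 1 or 2 or sgN6AMT1 replicate 2, where its log2 fold change was 0.30, 0.29 and 0.29. LAMTOR4 went from 77.4 to 91.5 CPM and did not pass (0.25, SE 0.10, edgeR adjusted p = 0.0571). LAMTOR1, the subunit that wraps around these, had a log2 fold change of -0.06, which turned positive without sgCtrl replicate 3 (0.0207) or sgN6AMT1 replicate 2 (0.0294), and its difference from the other subunits was not tested. RRAGA, the partner of RagC, did not pass either (50.5 to 57.8 CPM, 0.21, SE 0.12, edgeR adjusted p = 0.196).

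MTOR, the kinase, was the 1 gene of 6 tested in the list of mTORC1 subunits and chaperones that passed. It was lower (16.7% of the list, against 13.9% of all genes). Its counts were 282, 395 and 270 in control cells and 258, 243 and 215 in depleted cells, and its level went from 137 to 112 CPM (log2 fold change -0.30, SE 0.08, edgeR adjusted p = 0.00425). The groups did not overlap, as was so for 37.5% of all genes tested. The call was lost in edgeR without sgN6AMT1 replicate 2 (-0.25, adjusted p = 0.0557). RPTOR, its partner, had a log2 fold change of -0.19, and MLST8 one of 0.27, neither past the threshold.

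Among genes that tell mTORC1 about amino acids, 4 of 15 tested were higher (26.7%, against 12.9% of all genes) and 1 lower (6.67%, against 13.9%). GATSL2, now named CASTOR2 and related to an arginine sensor, rose from 4.94 to 11.2 CPM (log2 fold change 1.14, SE 0.29, edgeR adjusted p = 0.00162). Its whole transcript holds 8070 words of 28 bases, of which 671 (8.31%) occur in other listed transcripts, with GATS sharing the most. The GATSL2 CDS has only 987 bases, and the shared words within it were not counted. SESN2, the leucine sensor Sestrin2, rose from 45.7 to 58.9 CPM (0.37, SE 0.12, edgeR adjusted p = 0.0145), and NPRL2, a subunit of the Rag-inactivating complex GATOR1, from 15.5 to 23.1 CPM (0.56, SE 0.19, edgeR adjusted p = 0.0226). The GATOR2 subunits SEC13 (0.17, edgeR adjusted p = 0.0281) and SEH1L (-0.22, edgeR adjusted p = 0.0248) moved in opposite directions, and both also serve the nuclear pore. All of these 5 calls were lost with DESeq2, with adjusted p from 0.0554 to 0.208. That of SESN2 was also lost without sgCtrl replicate 2 (0.27) or sgN6AMT1 replicate 3 (0.29), and that of NPRL2 without sgCtrl replicate 3 (0.46) or sgN6AMT1 replicate 2 (0.40). SEC13 lost its call without sgCtrl replicate 2 (0.11), sgN6AMT1 replicate 2 (0.18) or sgN6AMT1 replicate 3 (0.12), and SEH1L without each of the libraries other than sgN6AMT1 replicate 3 (-0.23 to -0.21). With CDS length and GC trends removed NPRL2 (0.44) and SEC13 (0.0551) did not pass, nor did SEH1L with library totals alone (-0.16).

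In the list that holds TSC1, RHEB and the AKT and AMPK inputs to them, 2 of 12 tested genes were higher (16.7%, against 12.9% of all genes) and none lower. They were STK11, the kinase LKB1 (5.33 to 10.6 CPM, log2 fold change 0.96, SE 0.29, edgeR adjusted p = 0.00902), and PRKAB1, a subunit of AMPK (103 to 134 CPM, 0.39, SE 0.09, edgeR adjusted p = 0.000212). Both belong to the energy-sensing arm that restrains mTORC1 through TSC2 and RPTOR. PRKAB1 passed in every setting tried, and STK11 did not pass with DESeq2 (0.96, adjusted p = 0.142) or without sgN6AMT1 replicate 1 (0.77). RHEB itself went from 72.5 to 83.3 CPM (0.20, SE 0.11, edgeR adjusted p = 0.157). Among 12 outputs of mTORC1, 1 was higher (8.33%, against 12.9% of all genes) and none lower. It was EIF4EBP1, the translation repressor 4E-BP1 (53.9 to 70.2 CPM, 0.39, SE 0.11, edgeR adjusted p = 0.00575). EIF4EBP1 did not pass with DESeq2 (0.38, adjusted p = 0.0922) or without sgCtrl replicate 2 (0.33).

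Regulators of the factors gave 2 of 11 tested genes higher (18.2%, against 12.9% of all genes) and 1 lower (9.09%, against 13.9%). MCOLN1, the lysosomal calcium channel whose opening leads to dephosphorylation of TFEB, rose from 15.6 to 24.7 CPM (log2 fold change 0.69, SE 0.19, edgeR adjusted p = 0.00271). ZKSCAN3, a repressor of autophagy and lysosome genes, rose from 15.2 to 26.0 CPM (0.76, SE 0.19, edgeR adjusted p = 0.000791). Its whole transcript holds 4660 words of 28 bases, of which 739 (15.9%) occur in other listed transcripts, with ZKSCAN4 sharing the most. The ZKSCAN3 CDS has 1614 bases, and the shared words within it were not counted. XPO1, the exportin that carries TFEB out of the nucleus, was lower by a small margin (694 to 633 CPM, -0.13, SE 0.05, edgeR adjusted p = 0.0420). With DESeq2 the ZKSCAN3 call held (adjusted p = 0.0370) and those of MCOLN1 (0.67, adjusted p = 0.0771) and XPO1 (-0.14, adjusted p = 0.102) did not. The XPO1 call was lost as well with upper-quartile factors (-0.12), library totals alone (-0.0795), CDS trends removed (-0.0375), a minimum mean of 50 counts (-0.11) or a replicate block (-0.13), and without sgCtrl replicate 2 (-0.11), sgN6AMT1 replicate 2 (-0.11) or sgN6AMT1 replicate 3 (-0.12).

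**Figure D4:**
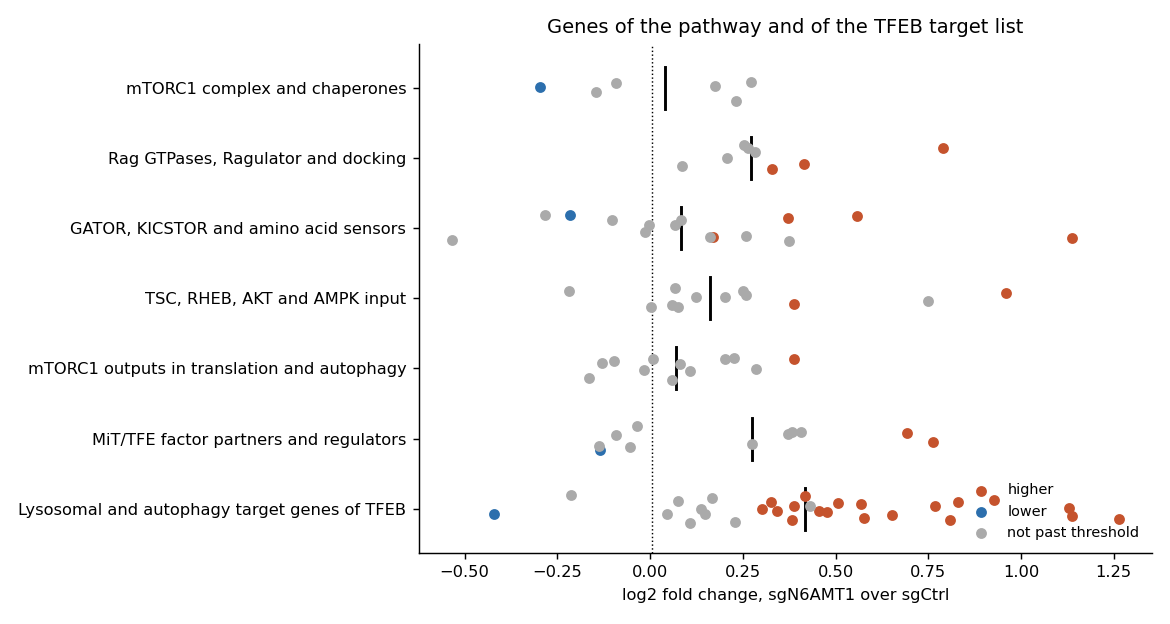
Log2 fold change of sgN6AMT1 over sgCtrl (horizontal axis) for every tested gene of the 6 pathway lists and of the TFEB target list, with 1 point per gene, a black bar at each list's median and a dotted line at the median of all genes tested. Points past the threshold are coloured by direction, and the target list has the highest median, at 0.42.

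The activity of the factors was not measured, and genes that TFEB and TFE3 are known to activate, most of them lysosomal or autophagic, were listed. Of 34 such genes 29 were tested, and 19 of these were higher (65.5%, against 12.9% of all genes) and 1 lower (3.45%, against 13.9%), with a median log2 fold change of 0.42 against 0.0063 over all genes. Many of these genes had been seen to rise in earlier work on the same libraries, so the count is a description. The 5 that rose most were SGSH (6.34 to 15.6 CPM, log2 fold change 1.26), CTSB (123 to 269 CPM, 1.14), ASAH1 (91.9 to 203 CPM, 1.13), CTSD (137 to 260 CPM, 0.93) and PSAP (966 to 1716 CPM, 0.83), with edgeR adjusted p from 2.51e-29 to 5.01e-05. They encode sulfamidase, cathepsins B and D, acid ceramidase and prosaposin. These 5 were picked for their size, and the median of the list, 0.42, was below the 0.73 of TFE3 and the 0.49 of RRAGC. VPS11, a subunit of the tethering complexes of the late endosome and lysosome, was lower (70.5 to 53.3 CPM, -0.42, edgeR adjusted p = 0.00311), and its call was lost with DESeq2 (-0.42, adjusted p = 0.0551) and without sgN6AMT1 replicate 2 (-0.31, adjusted p = 0.0806). The myeloid markers were also higher in sgN6AMT1 in sum, as given above, with ITGAM at 2, 1 and 0 counts in control cells and 17, 9 and 15 in depleted cells and CD14 at 0 in all libraries. Their part in the target list was not tested.

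**Figure D5:**
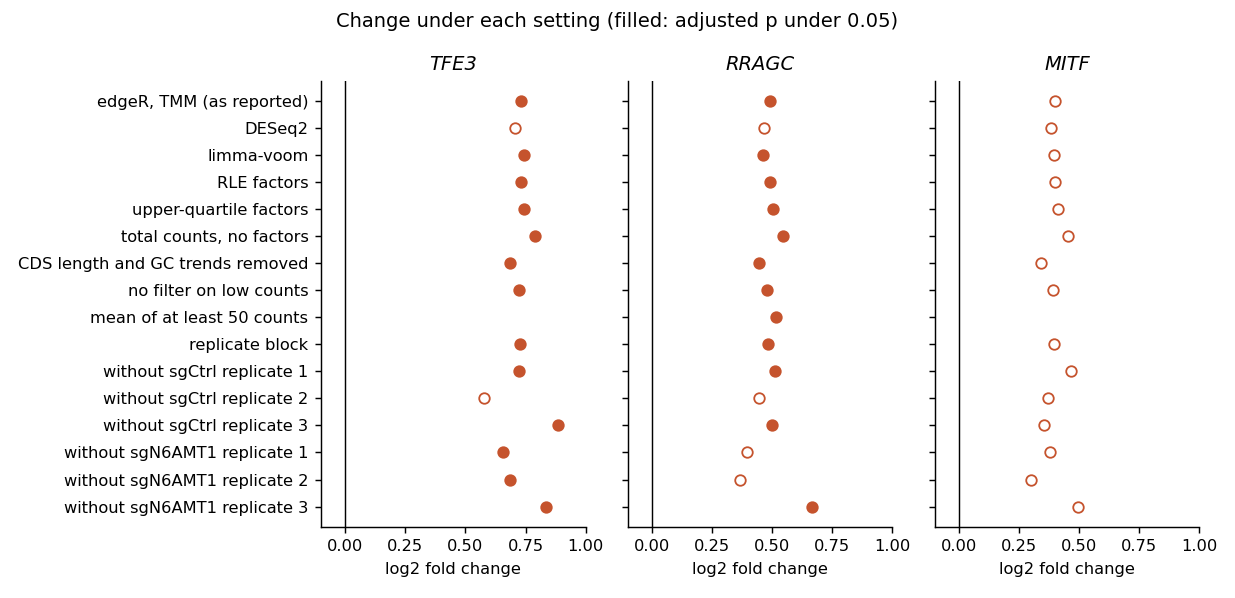
Log2 fold change of TFE3, RRAGC and MITF (horizontal axes, sgN6AMT1 over sgCtrl) under the analysis as reported and under each alternative setting, filled where the adjusted p was below 0.05. All points lie above 0, TFE3 is filled in all but 2 alternatives, RRAGC in all but 4, and MITF in none.

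The direction of these 3 genes was the same in every setting run. TFE3 ranged from 0.58 to 0.88 over 14 alternatives, MITF from 0.30 to 0.50 over 14 and RRAGC from 0.37 to 0.67 over 15. The remaining tested genes did not pass in any of them. For all genes tested, the share of calls that were downward was 51.8%, which became 38.5% when only library totals were used for scaling, without TMM factors, and 61.0% after trends on CDS length and GC content were removed, and TFE3 and RRAGC passed upward under both.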

How the data were processed

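The deposited table held whole-number footprint counts per transcript for the 6 libraries, not normalized and not pooled by the authors. They trimmed reads with cutadapt, mapped them to GRCh38 with HISAT2, removed rRNA and tRNA reads, mapped the rest to canonical transcripts with bowtie2 and assigned P-sites with riboWaltz. They also counted overlaps with gene models for DESeq2, and which of these counts were deposited is not stated. No molecular identifiers are described, so floors cover counting error only. Footprints do not separate translation from mRNA abundance, and the RNA-seq of the study was not used here.

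The counts were fitted in R 4.3.3 with edgeR 4.0.16 (quasi-likelihood F test, robust, 2-sided, TMM factors, Benjamini-Hochberg over 9202 genes, threshold 0.05). filterByExpr (minimum 10 counts) removed 10128 genes holding 0.465% of counts. CPM are scaled to TMM-adjusted library size, and SEs derive from the F statistic. Count ratios were compared by 2-sided exact permutation tests. Alternatives were DESeq2 1.42.0, limma-voom 3.58.1, other scaling factors, other filters, removal of CDS length and GC trends, a replicate block and fits without each library. CDS lengths came from GENCODE 44, which matched 91.5% of the transcripts by identifier. The fits were also run on simulated counts with the same dispersion for every gene and no CDS length or GC trends, a simpler setting than these data. The outcome is not given here.

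The 10 genes and all lists were chosen with earlier results of these data known. The text names N6AMT1, the 10 genes, FNIP2 and TSC1, every pathway-list gene past the threshold, and of the TFEB target list the 5 largest increases and up to 5 decreases past the threshold without overlap. LAMTOR4, RRAGA, MLST8 and RHEB were named after their values were seen. Within a group, pairs of libraries differed by more than sampling noise (chi-square per degree of freedom 1.25 to 1.68), and pairs across groups by 4.89 to 7.04.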

Additional observations from a re-analysis of the deposited data

How the results depend on the processing

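Of the 10 genes, 2 were called as reported, 0 with DESeq2, 1 with a minimum mean of 50 counts (5 genes tested) and 0 to 2 in the fits without 1 library, with 0 without sgCtrl replicate 2 and 1 each without sgN6AMT1 replicate 1 or 2. All genes called numbered 2473 as reported and 1324 with DESeq2. Pathway genes called numbered 15 as reported, 5 with DESeq2 and 9 to 16 without 1 library, the lowest without sgN6AMT1 replicate 2. Signs reversed only for genes near 0 and far from the threshold: without 1 library LAMTOR1 ranged from -0.21 to 0.0294, FNIP2 from -0.0174 to 0.22 and TSC1 from -0.11 to 0.24. The cause of these shifts was not tested. Correlations of same-numbered libraries were -0.14, 0.04 and 0.00, and those of differently numbered ones ran from -0.14 to 0.14. Taken on deviations from means of 3 libraries, they cannot settle whether the libraries were paired. With a replicate block 2390 genes and the same number of the 10 genes (2) were called. Over 32 genes named with a test and 15 alternatives, 416 values kept their direction and side of the threshold, 47 kept the direction only and 5 reversed. The RRAGC to RRAGD ratio planned at the start could not be computed. Low counts limit several of the genes: libraries held 1 to 10 counts for TFEB, 22 to 39 for FLCN, 25 to 53 for TFE3 and 28 to 51 for MITF.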
